A study of Mus musculus with 2 samples.

Results

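Ribosomal protein genes were compared between naive gamma/delta T cells and naive CD8+ alpha/beta T cells. The members were all probe sets whose single gene symbol names a protein of the cytosolic ribosome (Rpl or Rps followed by a number, Rplp0 to Rplp2, and Rpsa) or of the mitochondrial ribosome (Mrpl or Mrps followed by a number). Symbols of S6 kinases and pseudogenes were left out. This gave 262 probe sets for 126 genes, out of 34945 probe sets and 18193 genes with 1 symbol. Of these, 106 probe sets and 50 genes were cytosolic, and 156 probe sets and 76 genes were mitochondrial.

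The study held 2 samples, each hybridised to its own Affymetrix MOE430 2.0 array, on which short oligonucleotides grouped into probe sets read a transcript. The first was a preparation of gamma/delta T cells labelled CD44- and the second a preparation of CD8+ alpha/beta T cells. Both were taken from lymph nodes of C57BL/6 mice and purified by negative selection, and the labels name no genetic change or treatment. The labels give neither the age of the mice nor how many mice a preparation came from. With 1 array per group there was no replicate, so that no p-value or standard error could be given and each ratio compares these preparations only.

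The cytosolic ribosome translates the messages of the nuclear genome. Its proteins are made in near equal amounts, and their messages are among the most abundant of a cell. Most of these messages open with a terminal oligopyrimidine (TOP) tract, a C at the cap followed by a run of pyrimidines, through which the kinase mTOR sets their translation. The mitochondrial ribosome makes the few respiratory chain subunits encoded in mitochondrial DNA. All its proteins are encoded in the nucleus, translated in the cytosol and imported. Resting T cells hold a small translation apparatus that grows when they are activated.

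Start regions from RefSeq (build GRCm38.p6) show what separates and what joins the classes. Each sequence below runs from 60 bases before to 30 bases after an annotated start. Capitals mark a run of at least 8 pyrimidines opening with C that lies within 30 bases of the start, the motif CCGGAAG, which is bound by ETS family factors such as GABP, and TCTCGCGA, each motif on either strand. The reverse complement of CCGGAAG holds pyrimidines and can overlap a tract. The first 5 belong to cytosolic proteins that were lower in gamma/delta cells, and Rpl41 to one that was higher. Rps19 has 3 annotated starts, of which the first is shown. The last 3 belong to mitochondrial proteins that were at least 2-fold higher.
Rps10: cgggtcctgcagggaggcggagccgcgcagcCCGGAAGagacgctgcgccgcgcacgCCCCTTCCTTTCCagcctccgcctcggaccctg
Rps7: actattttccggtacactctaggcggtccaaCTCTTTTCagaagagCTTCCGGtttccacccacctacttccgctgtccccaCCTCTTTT
Rps9: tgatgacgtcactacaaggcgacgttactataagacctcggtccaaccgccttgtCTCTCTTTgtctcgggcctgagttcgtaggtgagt
Rps19: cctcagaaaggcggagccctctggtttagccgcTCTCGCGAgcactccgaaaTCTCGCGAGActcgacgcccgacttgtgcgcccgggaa
Rpl11: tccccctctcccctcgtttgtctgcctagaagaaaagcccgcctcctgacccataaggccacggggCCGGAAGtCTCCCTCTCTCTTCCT
Rpl41: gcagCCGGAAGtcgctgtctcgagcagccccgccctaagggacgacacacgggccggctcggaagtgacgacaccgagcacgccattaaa
Mrpl1: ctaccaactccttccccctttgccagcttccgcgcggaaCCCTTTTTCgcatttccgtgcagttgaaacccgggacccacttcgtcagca
Mrpl33: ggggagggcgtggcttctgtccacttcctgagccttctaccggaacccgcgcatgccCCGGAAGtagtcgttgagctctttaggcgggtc
Mrpl52: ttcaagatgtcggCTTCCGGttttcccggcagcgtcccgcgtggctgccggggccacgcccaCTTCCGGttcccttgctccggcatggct
They lie at chr17:27635215-27635304 (minus strand), chr12:28635924-28636013 (minus), chr7:3703981-3704070 (plus), chr7:24884532-24884621 (plus), chr4:136053364-136053453 (minus), chr10:128549139-128549228 (minus), chr5:96210055-96210144 (plus), chr5:31613891-31613980 (plus) and chr14:54426849-54426938 (plus).

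A pyrimidine run of this kind stood within 30 bases of a start in 24 of 44 cytosolic genes found in the RefSeq table (54.5%). It did so in 15 of 67 mitochondrial genes (22.4%), and 3676 of 17491 protein-coding genes held one. An annotated start placed exactly on a C with 4 pyrimidines after it was found in 8 cytosolic genes (18.2%), namely Rpl14, Rpl35, Rpl38, Rplp2, Rps10, Rps18, Rps27 and Rps6. It was found in 0 mitochondrial genes and in 2.67% of all genes. CCGGAAG was held, in a window of 300 bases around a start, by 47.7% of cytosolic and 37.3% of mitochondrial genes, against 12.9% of all genes. TCTCGCGA was held by 9 cytosolic genes (20.5%) and by 1 mitochondrial gene, Mrpl57 (1.49%), against 1.59% of all. Annotated starts can lie some bases from the true cap site, and a gene with several starts was counted if any of them matched. Among cytosolic genes with a ratio, the median log2 ratio of gamma/delta over alpha/beta was -0.41 in the 24 with a pyrimidine run and -0.47 in the 17 without one. It was -0.64 in the 8 whose annotated start is a C followed by 4 pyrimidines and -0.41 in the 33 others. These differences were not tested.

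The preparations carried the receptor and coreceptor transcripts that their labels name. Trgv4, a T cell receptor gamma segment, read 12522 in gamma/delta against 170.4 in alpha/beta cells, and Cd8a had 731.1 and 8852. Cd4 and Zbtb7b lay under the floor of 243.3 used here, the higher of the arrays' medians, to which lower signals were raised before a ratio was taken. So did 3 of 3 measured NK cell markers, 4 of 4 of erythroid cells and platelets, 5 of 8 of myeloid cells and 4 of 7 of B cells, among them Cd79a and Cd74. Summed over the 7 B cell markers the signal was 4897 in gamma/delta against 3898 in alpha/beta cells, most of it from Ebf1 and Ms4a1. For 8 myeloid markers it was 1272 against 1228 and for 5 of stroma, of which only Cdh5 was under the floor, 2199 against 2449, and the part of such cells in the values below was not tested. The actin controls read 6.99 times more signal at the 3′ than at the 5′ end of the message in gamma/delta cells, and 3.12 times more in alpha/beta cells, a gap that grows as RNA breaks down. For Gapdh the values were 3.06 and 3.24 and for the transferrin receptor 3.97 and 4.47, each lower in gamma/delta cells, and the part of RNA integrity in the values below was not tested. In whole cell populations, fewer cells of a type and less RNA per cell cannot be told apart.

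Cytosolic ribosomal protein genes were lower in gamma/delta cells almost throughout, while mitochondrial ones were mostly higher. Of 46 cytosolic genes above the floor on either array, 40 had a log2 ratio below 0, that is, lower in gamma/delta cells, and 6 above it, with a median of -0.42, or 1.33-fold higher in alpha/beta cells. Of 65 such mitochondrial genes, 42 were above 0 and 23 below, with a median of 0.30, or 1.23-fold higher in gamma/delta cells. The median of all 11914 genes with a ratio was 0.03, with 52.4% above 0 and 47.6% below. The classes differed in the size of single differences as well. At 2-fold, 1 cytosolic gene was higher and 1 lower in gamma/delta cells, and 10 mitochondrial genes were higher and 0 lower, where 5.82% of all genes were 2-fold higher and 3.93% 2-fold lower. At 1.5-fold, a limit chosen after the values were seen, 14 cytosolic genes were lower and 3 higher, and 24 mitochondrial genes were higher and 4 lower. The shares over all genes were 13.2% lower and 17.0% higher. Most cytosolic ratios thus lay close together, and the mitochondrial ratios were spread. The mitochondrial probe sets were dimmer, and between probe sets of one gene the pooled SD was 0.52 against 0.29 in the cytosolic class. Cytosolic probe sets under a signal of 5000 on an array were spread as well, with an interquartile range from -0.56 to 0.32. The part of brightness in the wider mitochondrial spread was not tested.

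**Figure D1:**
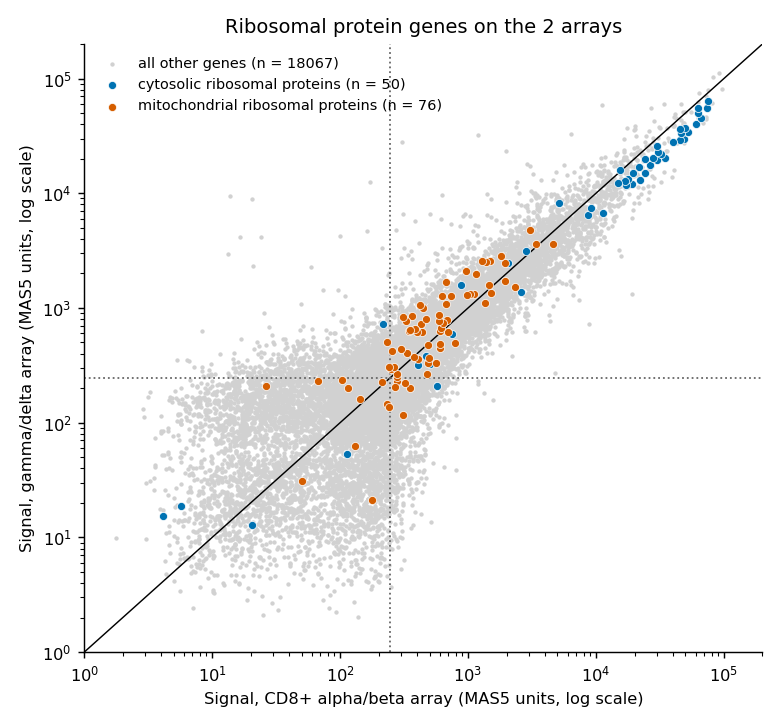
Signal of each gene's brightest probe set on the alpha/beta array (horizontal) and the gamma/delta array (vertical), both on log axes in MAS5 units. Grey points are the 18067 other genes, blue the 50 cytosolic and orange the 76 mitochondrial ribosomal protein genes, the line marks equal signals and the dotted lines the floor of 243.3. The bright cytosolic genes lie in a band under the line, and the dimmer mitochondrial genes lie mostly above it.

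**Figure D2:**
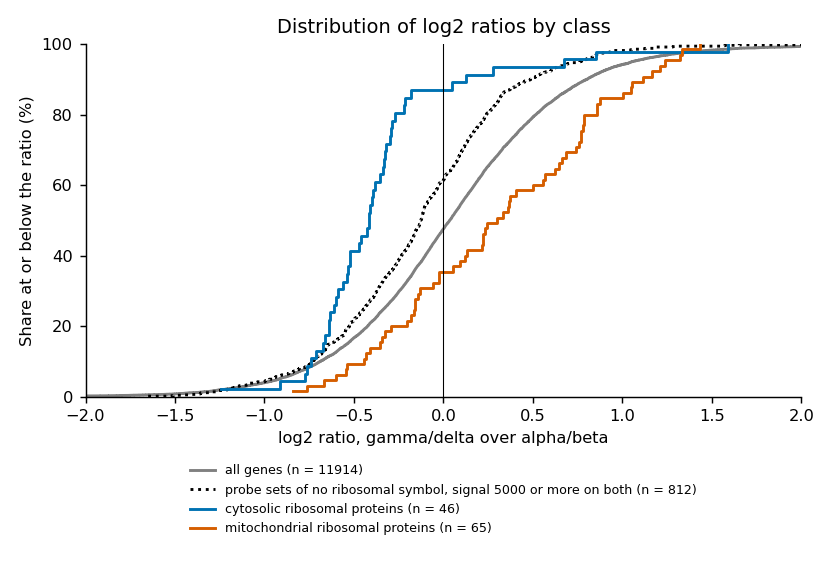
Cumulative share of genes (vertical, in percent) at or below each log2 ratio of gamma/delta over alpha/beta (horizontal). The blue curve of 46 cytosolic genes crosses 0 at 87.0% and the orange curve of 65 mitochondrial genes at 35.4%, against 47.6% for all 11914 genes (grey) and 61.5% for 812 bright probe sets of no ribosomal symbol (dotted).

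Counting every probe set on its own gave the same picture. Of 95 cytosolic probe sets with a ratio, 79 were below 0 and 16 above, and of 110 mitochondrial ones 73 were above and 37 below, where 49.5% of all 20297 such probe sets were below and 50.5% above. At 2-fold, 17 mitochondrial probe sets were higher and 1 was lower in gamma/delta cells, against 5.20% and 4.37% of all. The 2-fold counts for cytosolic probe sets were 2 and 1.

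The classes sat at different ends of the signal range. The genes' probe sets had a median signal of 15033 in gamma/delta against 20539 in alpha/beta cells for the cytosolic class, and of 623.3 against 457.8 for the mitochondrial class. Probe sets differ in how well they bind, so these values describe the probe sets and do not rank genes. Of the 50 cytosolic genes 44 lay above the floor on both arrays, 2 on 1 array and 4 on neither. Of the 76 mitochondrial genes the counts were 58, 7 and 11. Between probe sets of one gene the pooled SD of the log2 ratio was 0.29 in the cytosolic class and 0.52 in the mitochondrial class, against 0.50 over all genes.

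Bright probe sets as a whole leaned towards alpha/beta cells, though by less than the cytosolic ribosomal ones. Among probe sets with a signal of at least 5000 on both arrays, a limit chosen after the values were seen, 62 of 65 cytosolic ones were below 0, with a median log2 ratio of -0.47. Of these 65, 0 were 2-fold higher or lower, and 1 was 1.5-fold higher and 19 were 1.5-fold lower in gamma/delta cells. Of 812 probe sets that passed the same limit and name no ribosomal protein, 61.5% were below 0 and 38.5% above, with a median of -0.13. Above that limit they were not matched in signal to the cytosolic ones. The lean of other probe sets at the signals of the cytosolic ones was therefore not measured. Among them 1.85% were 2-fold higher and 4.19% 2-fold lower, and 7.88% were 1.5-fold higher and 16.4% 1.5-fold lower. The 18 probe sets for spiked-in bacterial and phage transcripts, with signals from 10304 to 336719, had a median of -0.09 and a range from -0.21 to 0.04. An intensity-dependent loess between the arrays was fitted to all probe sets but controls, ribosomal ones included. It can take up part of the ribosomal shift itself, and the lean of the 812 was not computed after it. After this loess the cytosolic median was -0.23 and 37 of 46 genes were below 0. After quantile normalization the cytosolic median was -0.27, also with 37 below 0. The mitochondrial median was 0.27 under either. The size of the cytosolic shift thus depended on the scaling, and its direction did not.

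Cytosolic probe sets outside the symbol rule were also lower in gamma/delta cells, and the few mitochondrial ones were not higher. Another 110 probe sets carry several symbols of which at least 1 is a cytosolic ribosomal protein, many of them beside a pseudogene of it, and they name no single gene. Transcripts of processed pseudogenes and of the gene itself cannot be told apart on such probe sets. Of the 102 with a ratio, 98 were below 0, with a median of -0.44. All 79 with a signal of at least 5000 on both arrays were below 0, from -1.12 to -0.09. Only 4 such probe sets exist for the mitochondrial class, and the 3 with a ratio ran from -0.49 to -0.08, below 0 where most of the mitochondrial class was above it.

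Small subunit proteins lay somewhat lower than large subunit proteins. Genes were sorted by symbol, so the small subunit group holds Rps19bp1 and the large subunit group Rpl7l1 and other paralogues. Of 22 small subunit genes with a ratio 19 were below 0, with a median of -0.53, and of 24 large subunit genes 21 were below 0, with a median of -0.38. Under loess the medians were -0.31 and -0.18. The difference between the subunits was not tested. At 1.5-fold, 10 small subunit and 4 large subunit genes were higher in alpha/beta cells, against 13.2% of all genes.

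Among small subunit proteins, Rps6 and Rps9 had the largest log2 ratios towards alpha/beta cells. Rps6, the substrate of S6 kinase that gave the kinase its name, had signals of 1387 in gamma/delta against 2614 in alpha/beta cells, 1.88-fold higher in alpha/beta cells. Rps9, a protein of the subunit's body, had 20167 and 34528 (1.71-fold). Rps7 had 29512 and 48320 (1.64-fold). Rps3, at the entry of the messenger RNA channel, had 29265 and 45604 (1.56-fold). The probe sets of Rps7 had log2 ratios of -0.78 and -0.71 and those of Rps9 ran from -0.78 to -0.27, the last a bound. Those of Rps6 gave -0.91 and at most -0.43. These genes and Rps10 below were among those named for large ratios on probe sets of one sign, so that sign is no support.

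Rps10, a protein of the subunit's head, was read by 5 probe sets above the floor. Their signals ran from 9179 to 15029 in gamma/delta and from 17474 to 23999 in alpha/beta cells. The log2 ratios within a probe set ran from -0.93 to -0.60. A sixth probe set, at 13.5 and 14.7, carried no usable signal. Its promoter, shown above, has the tract across its start.

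Genes mutated in Diamond-Blackfan anaemia, a failure of red cell production caused by loss of 1 copy of a ribosomal protein gene, were measured in 10 cases. All 10 were lower in gamma/delta cells, with a median log2 ratio of -0.59, against 47.6% of all genes below 0. Rps19, the gene most often mutated in that disease, had signals of 13158 in gamma/delta against 22014 in alpha/beta cells (1.67-fold higher in alpha/beta cells). Rps26 had 12146 and 19251 (1.58-fold). Rpl11, which with 5S RNA can bind and restrain the p53 ligase Mdm2, had 12777 and 16847 (1.32-fold). At the other end Rps29 had 64042 and 74584, a log2 ratio of -0.22, which turned positive under loess and under quantile normalization, leaving 9 of the 10 below 0 under each. These genes are a subset of a class that was lower nearly throughout, and nothing particular to them was shown.

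Other small subunit proteins lay close to the class median. Rpsa, which also serves as a laminin receptor, had a signal of 11900 in gamma/delta against 17112 in alpha/beta cells (1.44-fold higher in alpha/beta cells), and Rps3a1 had 45491 against 65899 (1.45-fold). Rps28 ran from log2 ratios of -0.81 to -0.45 over 3 probe sets and Rps18 from -0.78 to -0.38 over 4. Rps24 had 54844 against 73283 on its brightest probe set, and its 5 probe sets spanned -0.56 to 0.34, with the dimmest on the positive side. Rps24 therefore turned positive, to 0.34, when probe sets open to cross-hybridisation by their suffix were dropped. Rps20 had 40463 against 60875 and 35083 against 51337 on its bright probe sets, with log2 ratios of -0.59 and -0.55. Its dim ones were divided, at 0.36 and at most -0.72. Rps19bp1, caught by the symbol rule although it encodes a protein that binds Rps19, had 321.4 against 404.8. Without it and the paralogues Rpl7l1 and Rpl39l the class median was -0.43 over 43 genes.

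The stalk of the large subunit recruits elongation factors. Its base protein Rplp0 had a signal of 6664 in gamma/delta against 11298 in alpha/beta cells (1.70-fold higher in alpha/beta cells). Rplp2, one of the acidic proteins of the stalk, had 19335 and 30074 (1.56-fold). Both were read by 1 probe set. Rplp0 is widely used as a reference transcript in quantitative PCR, and on these arrays it was among the 4 cytosolic genes with the largest difference towards alpha/beta cells.

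Other large subunit proteins followed with smaller differences. Rpl27 was read by 3 probe sets with log2 ratios from -0.54 to -0.43, the one used at 21966 in gamma/delta against 31974 in alpha/beta cells (1.46-fold higher in alpha/beta cells). Rpl35 was read by 5 from -0.46 to -0.27. Rpl4, which lines the exit tunnel of the growing chain, had 27695 and 39719 (1.43-fold). Rpl7 ran from -0.53 to -0.29 over 3 probe sets. Rpl13a, whose product can leave the ribosome to silence messages of inflammation, ran from -0.65 to -0.31 over 4, the one used at 50414 and 63235. Of the large subunit genes lower in gamma/delta cells, the smallest differences were in Rpl38, known for its part in the translation of Hox messages (55252 and 62695), and Rpl10a (26054 and 30200). Their log2 ratios of -0.18 and -0.21 turned positive under loess and under quantile normalization.

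Rpl22 has a particular place in these lineages, since mice without it make few alpha/beta T cells while gamma/delta T cells are spared. Its brightest probe set read 16803 in gamma/delta against 21496 in alpha/beta cells, a log2 ratio of -0.36, and the next read 12374 and 15394, a ratio of -0.32. Another, much dimmer one read 716.1 and 562.1 and went the other way, with 0.35. Its paralogue Rpl22l1, which can take its place in the ribosome, had 7414 and 9118, a log2 ratio of -0.30. Rpl22 and Rpl22l1 therefore lay on the same side, each near the class median of -0.42 and well short of a 2-fold difference.

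The other paralogues were dim or divided. Rps27 had 326.2 in gamma/delta against 507.2 in alpha/beta cells (1.55-fold higher in alpha/beta cells). Its paralogue Rps27l, a target of p53, had 2479 and 2049 on its brightest probe set, with log2 ratios from -0.57 to 0.27 over 3 and a sign that changed when probe sets were averaged. Rpl39l, a form best known from testis, had 382.6 and 467.8, while Rpl39 was higher in gamma/delta cells. Rpl7l1 had log2 ratios from -0.34 to 0.08. The muscle form Rpl3l and Rps4l lay under the floor on both arrays, at 18.7 and 5.69 and at 12.8 and 20.3. Rps4x had 33847 and 51692 on its bright probe set (1.53-fold higher in alpha/beta cells) and 420.7 and 178.4 on a dim one, and its ratio turned positive, to 0.31, when these were averaged.

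The 6 cytosolic genes on the other side were Rpl41, Rpl39, Rps2, Rps25, Rps27l and Rpl12. Rpl41, a peptide that bridges the subunits, was higher in gamma/delta cells on all 4 probe sets. They read 8263, 6692, 5732 and 3305 in gamma/delta cells against 5179, 2648, 5628 and 1933 in alpha/beta cells, with log2 ratios of 0.67, 1.34, 0.03 and 0.77. It was the 1 cytosolic gene of 23 with several probe sets on which all were above 0, where 15 had all below 0 and 7 were mixed. Rpl39, a small protein of the exit tunnel, had 1589 and 879.1 on 1 probe set (1.81-fold higher in gamma/delta cells). Rps2 and Rps25 had log2 ratios of 0.05 and 0.13.

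The 2 cytosolic genes past 2-fold were both dim single probe sets. Rpl12 read 731.5 in gamma/delta cells and 216.0, under the floor, in alpha/beta cells, an excess in gamma/delta cells of at least 3.01-fold. Rpl14 read 206.9, under the floor, in gamma/delta against 576.9 in alpha/beta cells, an excess in alpha/beta cells of at least 2.37-fold. With the floor at the 70th percentile neither reached 2-fold. Cytosolic probe sets under 5000 on at least 1 array were divided, with 13 above 0 and 17 below among the 30 with a ratio. Neither array read Rpl37 or Rps16 above the floor on the 1 probe set that carries its symbol alone.

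**Figure D3:**
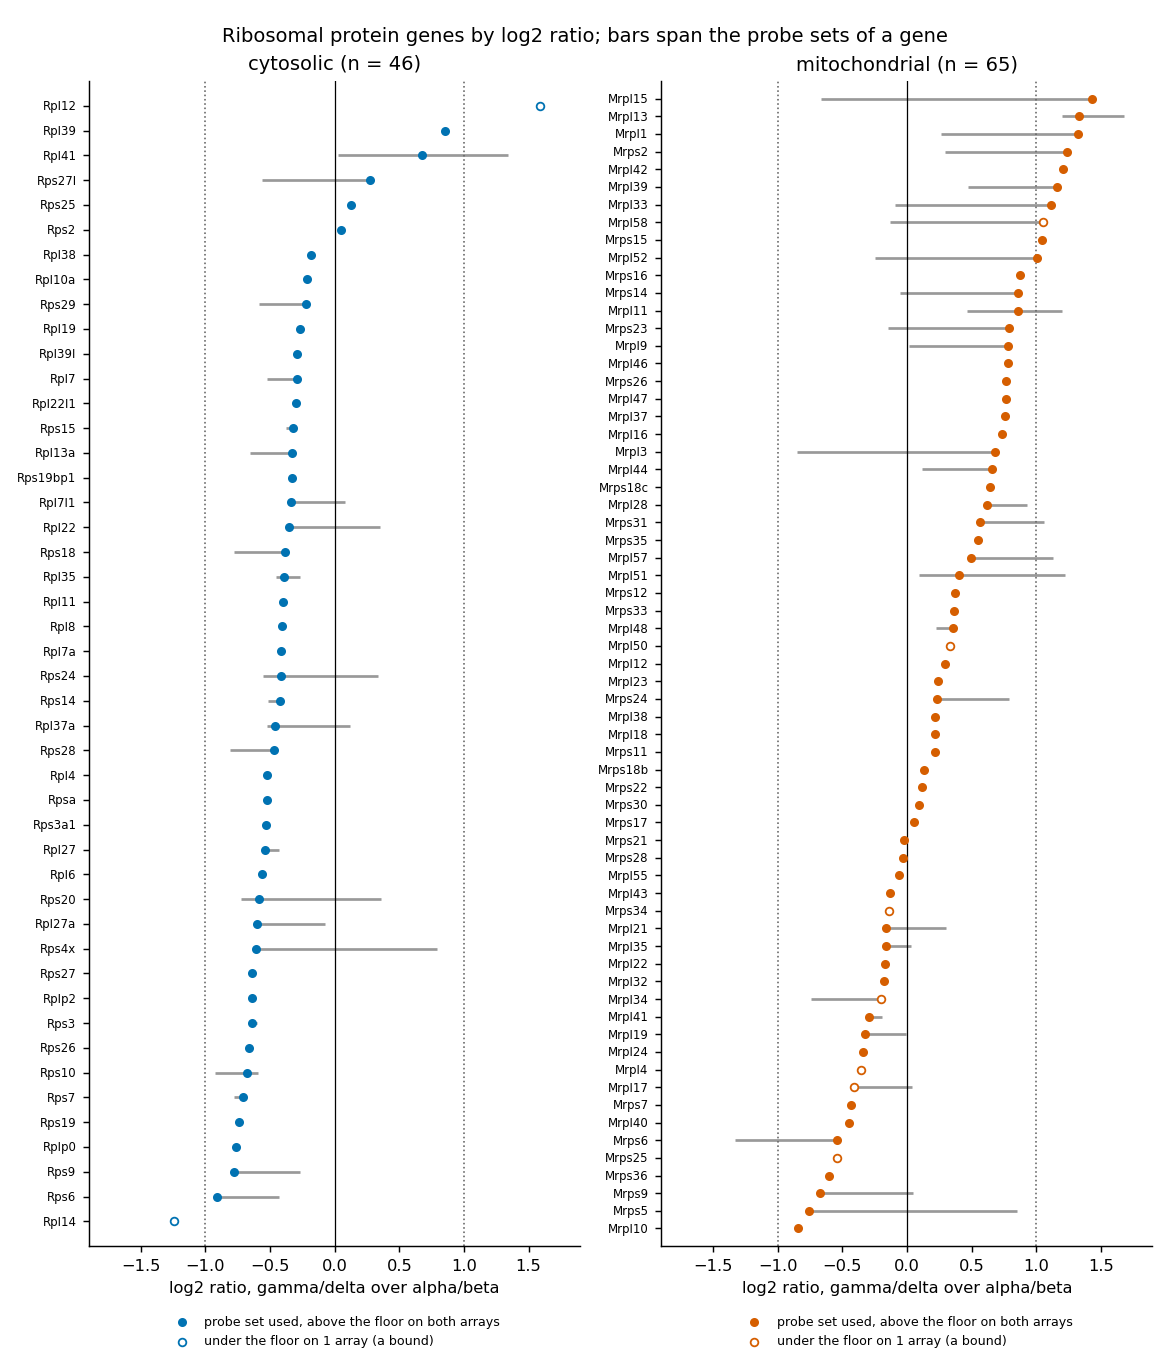
Log2 ratio of gamma/delta over alpha/beta (horizontal) for each of the 46 cytosolic (left, blue) and 65 mitochondrial (right, orange) genes with a ratio, ranked. Points are the probe set used, open where 1 array lay under the floor so that the value is a bound, grey bars span all probe sets of the gene with a ratio, and dotted lines mark 2-fold. The interquartile range of cytosolic genes lies between -0.61 and -0.30 and that of mitochondrial genes between -0.16 and 0.77.

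Mitochondrial ribosomal proteins, read by dimmer probe sets, were spread more widely, with an interquartile range of the log2 ratio from -0.16 to 0.77. The large subunit had a median of 0.36 over 39 genes (25 above 0) and the small subunit 0.17 over 26 (17 above 0). Proteins with counterparts in bacterial ribosomes (Mrpl1 to Mrpl36 and Mrps1 to Mrps21 by number) had a median of 0.22 over 36 genes. Those with higher numbers, taken as specific to mitochondrial ribosomes, had one of 0.36 over 29. By this rule they include Mrps36, which works in another complex. The differences between these groups were not tested. Of 30 genes with several probe sets with a ratio, 14 had all above 0, 4 all below and 12 were mixed, so that 18 had one sign. The share with one sign was 47.2% of such genes over the array and 69.6% of cytosolic ones.

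Among proteins with bacterial counterparts, Mrpl13, a large subunit protein, differed on every probe set above the floor. These read 1687, 1022 and 888.8 in gamma/delta cells against 668.6, 318.6 and 386.8 in alpha/beta cells, with log2 ratios of 1.33, 1.68 and 1.20. Mrpl1, which forms the mobile stalk where transfer RNA leaves, read 1062, 825.9 and 534.2 against 424.3, 463.4 and 445.0, with log2 ratios of 1.32, 0.83 and 0.26. Mrps15, a small subunit protein, had 1280 and 620.3 (2.06-fold higher in gamma/delta cells), and a second probe set gave at least 2.02-fold. These genes were named for large ratios on probe sets of one sign, so that sign is no support. The same holds for Mrps2, Mrps16, Mrpl11, Mrpl9, Mrpl42, Mrpl39 and Mrpl46 below.

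Mrps2, whose loss in people impairs mitochondrial translation, read 770.6 and 327.0 (2.36-fold higher in gamma/delta cells), with a second probe set at 298.2 and 184.0, a bound of 0.29. Mrps16 had 643.7 and 350.7 on 1 probe set (1.84-fold). Mrpl11 ran from log2 ratios of 0.46 to 1.20 over 3 probe sets, the brightest at 2500 and 1381 (1.81-fold). Mrpl9 had 1976 and 1149 (1.72-fold), with log2 ratios of 0.24 and of at least 0.02 on its other probe sets.

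Among the mitochondria-specific proteins, Mrpl42 had a signal of 845.3 in gamma/delta against 365.3 in alpha/beta cells (2.31-fold higher in gamma/delta cells). Mrpl39 had 1000.2 and 446.5 (2.24-fold), and its second probe set a log2 ratio of 0.47. Mrpl46 had 804.9 and 469.1 (1.72-fold). Mrpl44, related to ribonuclease III, had 4790 and 3028 on its brightest probe set, and its 4 probe sets had log2 ratios from 0.12 to 0.66.

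A further group lay between 1.5-fold and 2-fold on 1 probe set each. Mrps26 had 653.2 and 383.4, Mrpl47 1262 and 741.9, Mrpl37 718.2 and 424.9 and Mrpl16 422.2 and 253.1, with log2 ratios from 0.74 to 0.77. In Mrpl28, Mrps31, Mrpl57 and Mrpl51 the brightest probe set gave the smaller or a middle value. Their log2 ratios were 0.62, 0.57, 0.50 and 0.40. Another probe set of each gave 0.93, 1.06, at least 1.13 and at least 1.23, and the remaining one of Mrpl51 gave 0.10. Mrps14, Mrps23 and Mrpl3 had 0.86, 0.79 and 0.68, each with another probe set below 0. Mrps12, which shapes the decoding site, had 761.9 and 588.6, a log2 ratio of 0.37.

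The remaining 4 genes past 2-fold rested on probe sets that disagreed. Mrpl15 had the largest ratio of the class, 1.43, from signals of 836.1 and 310.1, but the 5 that read it above the floor spanned -0.66 to 1.43. Mrpl33 had 2094 and 965.8 (2.17-fold) with another probe set at -0.09. Mrpl52 had 2567 and 1280 (2.01-fold) with others at 0.06 and -0.25. Mrpl58, a hydrolase that frees stalled chains, had 504.2 and 231.2 (at least 2.07-fold) with another at -0.13. When all probe sets of a gene were averaged, 2 mitochondrial genes were 2-fold higher and 1 was 2-fold lower in gamma/delta cells, out of 55 with a ratio, and the class median was 0.24. The 2 were Mrpl9 and Mrpl11 (1.09) and the 1 was Mrps6 (-1.11). With the floor applied to each, no single probe set of Mrpl9 was past 2-fold. Its probe set at 246.3 in gamma/delta against 6.12 in alpha/beta cells entered the average before the floor was applied. In the same way the average of Mrpl11 took in a probe set under the floor on both arrays, at 189.8 against 52.9. That of Mrps6 took in one at 190.5 in gamma/delta against 610.2 in alpha/beta cells. Of the 10 genes past 2-fold on their brightest probe set, 9 were under 2-fold once averaged and Mrpl42 had no ratio. Probe sets under the floor on both arrays entered the averages, so a lower average need not mean that those with a ratio disagreed. Mrps15 was among the 9, although its 2 probe sets with a ratio gave log2 ratios of 1.05 and at least 1.01. Another of its probe sets, at 44.3 and 55.1, entered the average.

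With the floor used here 0 mitochondrial genes were 2-fold lower in gamma/delta cells, but where gamma/delta lay under the floor the ratio is a bound. Mrpl4, at 117.6 in gamma/delta against 311.2 in alpha/beta cells, had a log2 ratio of at most -0.35, and of -1.26, past 2-fold, once the floor was lowered to the 30th percentile. Mrpl10 had 264.7 in gamma/delta against 473.9 in alpha/beta cells (1.79-fold higher in alpha/beta cells), while Mrpl12, its partner in the stalk and also a binder of the mitochondrial RNA polymerase, had 407.6 and 331.5, a log2 ratio of 0.30. The signals of this pair lay close to the floor. Mrps36, which works in the oxoglutarate dehydrogenase complex despite its name, had 1523 and 2313 (1.52-fold higher in alpha/beta cells), and without it the median of the class was 0.31. Mrps6 had a log2 ratio of -0.54, and of at most -1.33 on a dimmer probe set under the floor in gamma/delta cells, Mrps7 had -0.43 and Mrpl24 -0.34. Mrps5 had 330.8 and 560.2 on one probe set, a log2 ratio of -0.76, and the opposite on another, 0.86. The 11 genes under the floor on both arrays were Mrpl2, Mrpl14, Mrpl20, Mrpl27, Mrpl36, Mrpl45, Mrpl49, Mrpl54, Mrps10, Mrps18a and Mrps27. Of the paralogues of ribosomal protein S18, Mrps18c had 2829 and 1808 (1.56-fold higher in gamma/delta cells), Mrps18b 1599 and 1462, and Mrps18a 227.6 and 214.4, under the floor.

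Genes that work with the cytosolic ribosome were set beside it. Fau, whose product holds a small subunit protein fused to a ubiquitin-like one and which the symbol rule leaves out, had 20900 and 27205, a log2 ratio of -0.38. Of 13 measured elongation factors and other genes whose messages carry a TOP tract or are translated like them, 13 were below 0 and 1 was 2-fold lower, with a median of -0.47, against 47.6% and 3.93% of all genes. Under quantile normalization 12 were below 0, with a median of -0.32, and under loess 11, with a median of -0.34, where Tpt1 and Eef1d turned positive. Eef1b2, an exchange factor of elongation factor 1, had 45795 in gamma/delta against 71900 in alpha/beta cells (1.57-fold higher in alpha/beta cells). Eif4b had 3665 and 6270 (1.71-fold), Eif3h 4585 and 7504 (1.64-fold) and Hnrnpa1 7744 and 14894 (1.92-fold). Pabpc1, the poly(A) binding protein, had 4165 and 8416 (2.02-fold), but another probe set gave a log2 ratio of 0.57.

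Initiation factors that are not classed with these were divided. Of 19, 8 were above 0 and 11 below, with a median of -0.08, and 1 was 2-fold higher and 0 were 2-fold lower, against 5.82% and 3.93% of all genes, of which 52.4% were above 0. The 1 was Eif4e, the cap-binding protein, with 2488 in gamma/delta against 971.7 in alpha/beta cells (2.56-fold higher in gamma/delta cells), and with its probe sets averaged it had a log2 ratio of 0.52. Its inhibitor Eif4ebp1 was under the floor in gamma/delta cells, at 155.2 against 365.3 (a log2 ratio of at most -0.59). Eif3i and Eif5a had log2 ratios of 0.86 and 0.60.

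Ribosome assembly factors went both ways. Of 27 with a ratio, 16 were above 0 and 11 below, with a median of 0.11, and 3 were 2-fold higher and 1 was 2-fold lower in gamma/delta cells, against 5.82% and 3.93% of all genes. Ebna1bp2 had 984.8 and 268.0 (3.68-fold higher in gamma/delta cells) on the 1 of its 3 probe sets with a ratio. Its alpha/beta signal lay close to the floor. With the floor at the 70th percentile its log2 ratio was 1.14, and with its probe sets averaged it had none. Rrp1b had 1105 and 412.9 (2.68-fold), but another probe set gave a log2 ratio of 0.03 and the average of its probe sets 0.39. Nolc1 had 1762 and 809.6 (2.18-fold), with log2 ratios from 0.06 to 1.12 over 3 probe sets. Npm1, a nucleolar chaperone whose message is also abundant, had 11476 and 25529 (2.22-fold higher in alpha/beta cells), and a log2 ratio of -0.98 with its probe sets averaged. For RNA polymerase I and its factors the median was 0.11 over 11 genes, with Ubtf at 2304 and 1346 and Polr1c at 686.0 and 1477 (2.15-fold higher in alpha/beta cells). Polr1c had, on average over its probe sets, a log2 ratio of -0.71.

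Genes around the mitochondrial ribosome were divided. Of 8 mitochondrial translation factors with a ratio, 4 were above 0 and 4 below, with 0 past 2-fold and a median of 0.02 that was below 0 under quantile normalization (-0.029) and loess (-0.016). Another 17 genes of mitochondrial ribosome assembly and transcription had a median of 0.19, with 11 above 0. Fastkd2, which binds mitochondrial ribosomal RNA, had 2076 in gamma/delta against 733.0 in alpha/beta cells (2.83-fold higher in gamma/delta cells), and a log2 ratio of 0.54 with its probe sets averaged. Eral1, a chaperone of the small subunit's RNA, had 1171 and 625.5 (1.87-fold), and 0.46 when averaged. Tfb1m, a methylase of that RNA, had 270.1 and 546.6 (2.02-fold higher in alpha/beta cells), close to the floor, and a log2 ratio of 0.055 with its probe sets averaged. The 4 mitochondrial ribosomal proteins that carry other symbols were all below 0, with Chchd1 at 371.7 and 1251 (3.37-fold higher in alpha/beta cells) and Dap3 at 1275 and 1485.

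Of the regulators of these genes, Yy1 had 9353 in gamma/delta against 21208 in alpha/beta cells (2.27-fold higher in alpha/beta cells), with another probe set at a log2 ratio of 0.39. Max had 2136 and 3454 and Nrf1 359.3 and 578.5, while Mycn had 895.5 and 501.8. The 3 probe sets of Nrf1 with a ratio were divided, from -0.69 to 0.24. Myc lay under the floor on both arrays, at 48.6 and 83.2. The list's median was -0.35 over 9 genes, with 3 above 0 and 6 below. Of these 9, 0 were 2-fold higher and 1 was 2-fold lower in gamma/delta cells, against 5.82% and 3.93% of all genes.

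**Figure D4:**
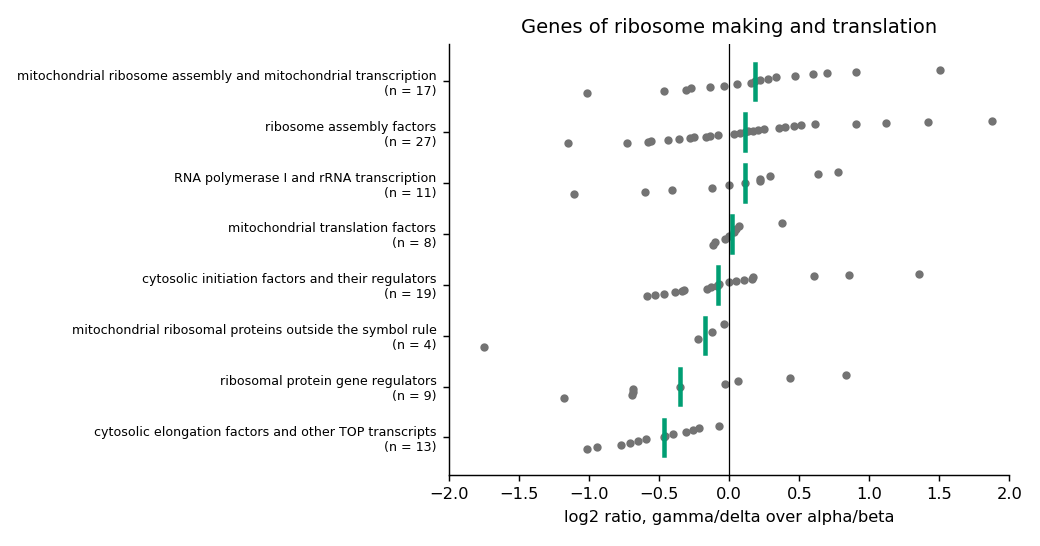
Log2 ratio of gamma/delta over alpha/beta (horizontal) of each gene (grey points) in 8 lists of ribosome making and translation, with the list's median as a green bar. The 13 elongation factors and other TOP transcripts all lie below 0 with a median of -0.47 (11 under loess), and the assembly factors and mitochondrial translation factors spread on both sides of 0.

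**Figure D5:**
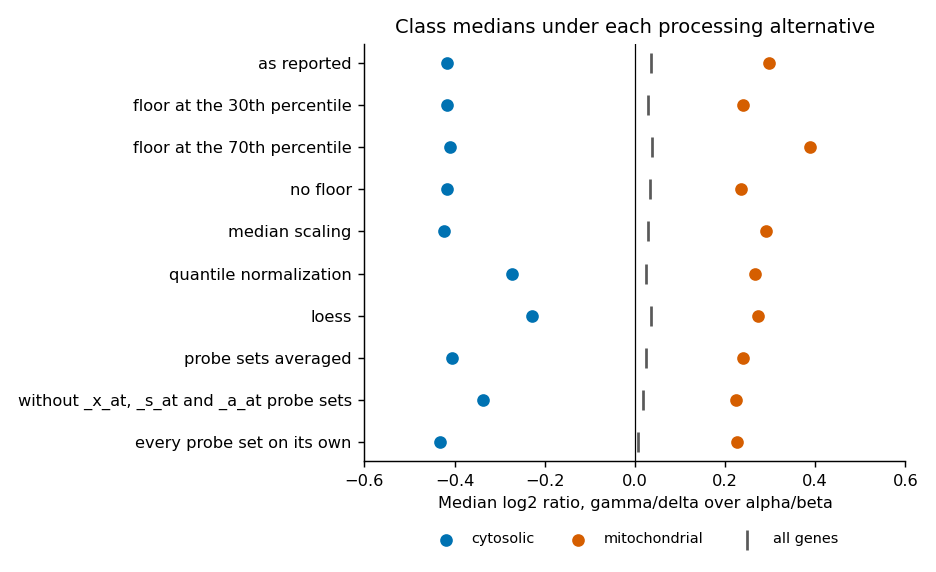
Median log2 ratio (horizontal) of cytosolic (blue) and mitochondrial (orange) genes, and of all genes (grey ticks), as reported and under 9 processing alternatives. The cytosolic median runs from -0.43 to -0.23 and the mitochondrial median from 0.23 to 0.39, and each keeps its side of 0.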

How the data were processed

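RNA of 2 samples was measured on 1 array each. The authors deposited 1 linear intensity per probe set, and the submitters' processing notes name Affymetrix Expression Console 1.0 and MAS5. Both arrays had a 2% trimmed mean of 500.003, so they shared a scale. MAS5 subtracts mismatch signals, which makes low intensities unsteady. Symbols came from the platform annotation. Probe sets with several symbols (932), with none listed (9160) and controls (64) name no gene. Each gene was read from the probe set whose log2 signals had the highest mean. Signals under the floor, the higher array median, were set to the floor before ratios were taken on the log2 scale, and a gene under it on both arrays has none. A call was 2-fold. Python 3.11.15 and statsmodels 0.14.6 were used, and the calls were checked on simulated data. The simulated noise was the same at all intensities, so that check does not measure how steady calls on dim genes are. The members, lists and rule for named genes (paralogues and listed groups, the 10 largest ratios per class and direction with probe sets of one sign, all members past 2-fold, and 4 per further list) were chosen with earlier results of these data known. Other genes were named after their values were seen. Alternatives changed the floor, the scaling and the handling of probe sets. Averages were taken on the log2 scale over all probe sets of a gene, also those under the floor, before the floor was applied. Protein sequences were not used here.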

Additional observations from a re-analysis of the deposited data

How the results depend on the processing

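The cytosolic median of -0.42 stayed below 0 and the mitochondrial median of 0.30 above 0 under all 9 alternatives of floor, scaling and probe sets, and the cytosolic one was smaller after quantile normalization (-0.27) and loess (-0.23). Cytosolic genes past 2-fold numbered 2 as reported, 0 with the floor raised to the 70th percentile, 5 without a floor, and 17 at 1.5-fold. Mitochondrial ones numbered 10 as reported, 6 with the raised floor, 16 without one, 3 with probe sets averaged and 18 with every probe set on its own, and 28 at 1.5-fold, a limit added after the data were seen, as were the brightness limit, the probe sets of several symbols and the class without Mrps36. Over all genes as reported, 5.82% were 2-fold higher and 3.93% 2-fold lower in gamma/delta cells, and at 1.5-fold 17.0% and 13.2%. Over all probe sets on their own the 2-fold shares were 5.20% and 4.37%. Shares over all genes were not computed for the other floors or for averaged probe sets, so those counts cannot be set against the array. When probe sets marked _x, _s or _a, which may match several transcripts, were dropped, Mrpl15 (-0.66), Mrpl52 (-0.25), Mrpl58 (-0.13), Rps24 (0.34) and Pabpc1 (0.57) changed sign, as did Tfb1m (0.055) with probe sets averaged, in each case because other probe sets of the gene then gave the value. The cause of the other shifts was not tested. No paired analysis was possible because each group has 1 array, and for the same reason no array could be left out. Of the 10 mitochondrial genes past 2-fold, 0 were past it with probe sets averaged, and Mrpl42 then had no ratio. Probe sets under the floor on both arrays entered these averages, so a lower average need not mean that the probe sets with a ratio disagreed.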
